A study of Mus musculus with 16 samples.

Results

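Sorted melanocytes of embryonic mouse skin were compared with the keratinocyte fractions of the same skin, in FPKM values (fragments scaled to transcript length and to the mapped total). The skin was taken at embryonic day 14.5 and separated by fluorescence-activated cell sorting into 8 fractions of 2 libraries each, 16 libraries in all. The labels name the fractions by abbreviation only, and give no genotype, strain or sex. Mc is read from general knowledge of the study as the melanocyte fraction, Pc as the placode and Epi as the remaining epidermis, both keratinocytes, and Fb as the fibroblasts that served for comparison with a non-epithelial population. The markers of the sort are not stated either, and a high level of any gene used for it would only restate the gate. Nothing says that the 2 libraries of a fraction came from separate litters. The p-values therefore cover the spread between these libraries alone, which may be technical. Genes entered the comparison when they reached at least 1 FPKM in at least 2 of the 6 Mc, Pc and Epi libraries, which held for 12383 of the 23235 rows of the table.

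Melanocytes descend from the neural crest. Their precursors, the melanoblasts, travel through the dermis, cross the basement membrane into the epidermis and then live between keratinocytes, to which they bind largely through E-cadherin. Mitf, the lineage's master transcription factor, switches on the genes of the melanosome, the lysosome-related organelle in which melanin is made, and survival depends on Kit, a receptor tyrosine kinase whose ligand comes from surrounding skin cells. Keratinocytes hold together by desmosomes and keratin filaments and rest on hemidesmosomes, under the control of Trp63.

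The labels were first checked against their defining genes, and the presence of other cell types was measured. Dct had 3522 and 2407 FPKM in Mc, against 18.4 and 15.6 FPKM in Pc and 92.8 and 132 FPKM in Epi. Kit had 390.5 and 522 FPKM in Mc, against 5.78 and 6.74 FPKM in Pc and 6.03 and 14.6 FPKM in Epi. Krt5 had 142 and 76.1 FPKM in Mc, against 1649 and 1136 FPKM in Pc and 1355 and 1104 FPKM in Epi. Dct and Kit were therefore high in both Mc libraries and Krt5 in all 4 keratinocyte libraries, with no overlap between the sides. In a sorted bulk sample a smaller number of cells of a type and less RNA per cell cannot be told apart. Over 18 basal keratinocyte markers the median level was 10.6% of the Pc and Epi mean in Mc replicate 1 and 5.34% in Mc replicate 2, against 0.793% to 5.67% in the 10 libraries outside Mc, Pc and Epi. Each of the 18 lay between 3.64% and 16.2% in both Mc libraries. The 12 melanosome genes of 16 that were called higher in Mc, a choice that favours low values elsewhere, had a median of 0.656% and 0.561% of the Mc mean in Pc, and 2.49% and 4.42% in Epi. Over 16 fibroblast markers the median was 6.31% and 4.48% of the Fb mean in Mc, 1.55% and 1.19% in Pc, and 1.2% and 1.41% in Epi. Over 16 Schwann cell markers, another crest derivative, it was 4.46% and 4.86% of the Sch mean in Mc, 0.994% and 0.527% in Pc and 0.832% and 1.23% in Epi. Over the 16 libraries the FPKM values summed to 439201 to 606437, and the Pearson correlation of log2(FPKM + 1) between the 2 libraries was 0.977 in Mc, 0.974 in Pc, 0.979 in Epi and 0.939 in Fb. The depth in reads is not given.

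Melanocytes and keratinocytes differed over a broad set of genes in both directions. Each difference given is the mean log2(FPKM + 1) in Mc minus the mean of the Pc and Epi means, with its standard error from limma. A gene is said to be higher or lower when the p-value adjusted by Benjamini-Hochberg over all 14171 rows tested was under 0.05 and the difference was at least 1 log2 unit. Of the 12383 members, 1307 were higher in Mc and 1212 were lower. Over all rows tested, 9.3% were higher and 8.55% lower, so these are the shares against which the gene groups below are read. Asked against Pc and Epi separately, 1072 members were above both and 835 below both, while over all rows tested 7.6% were above both and 5.89% below both. In 3037 of the 12383 members both Mc libraries lay above all 4 keratinocyte libraries, and in 3017 they lay below. These counts of separation carry no test, and among so few libraries separation can also arise by chance. All members passed the filter for testing, but 974 had a mean under 1 FPKM in Mc and 839 a mean under 1 FPKM in the keratinocytes. Of the members higher in Mc, 855 had at least 1 FPKM in the keratinocytes and 452 less, and 443 of those lower in Mc had under 1 FPKM there. The median difference was -0.01 over all rows tested and -0.03 over the members. Setting all libraries to equal FPKM totals moved the median of all rows to 0.10, and gave 1545 higher and 1052 lower rows.

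**Figure D1:**
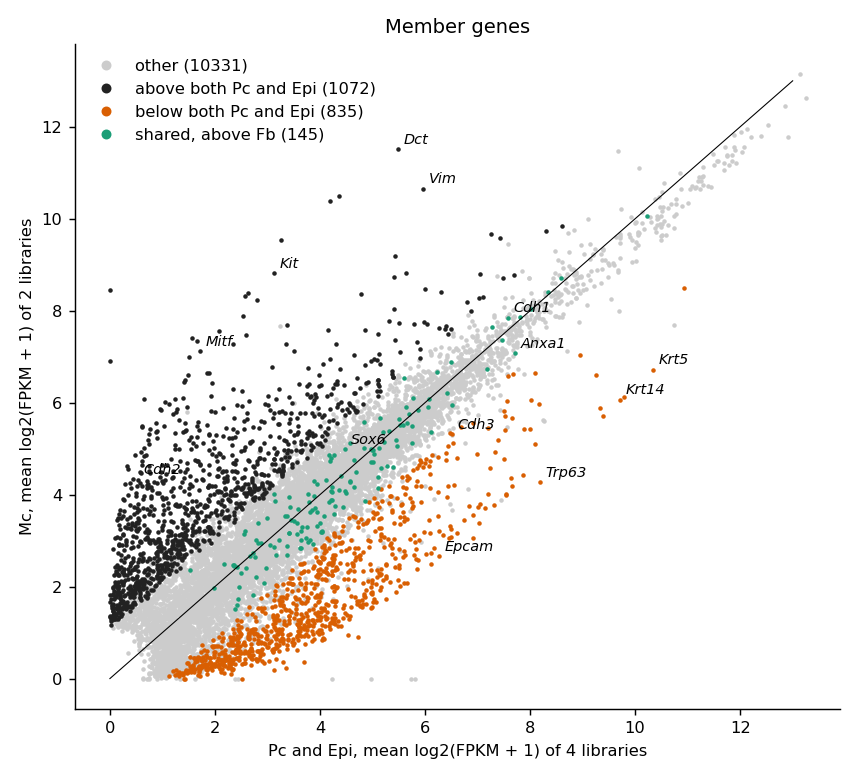
Mean log2(FPKM + 1) of each of the 12383 member genes in Mc (vertical axis, 2 libraries) against the Pc and Epi libraries (horizontal axis, 4 libraries), with the line of equal levels. The 1072 genes above both keratinocyte fractions include Dct, Kit, Mitf and Vim, the 835 below both include Trp63, Krt5 and Epcam, and the 145 genes within 1 log2 unit and above Fb, among them Cdh1, lie near the line.

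By the rule for named genes the 12 leading genes higher in melanocytes were the microRNA genes Mir211 and Mir664 and then Mlana, Pmel, Ptgds, Dct, Tyrp1, Ednrb, Gpnmb, Kit, Slc45a2 and Sox10. Mlana, a melanosome membrane protein, had 819 and 674 FPKM in Mc, against 3.8 and 2.48 FPKM in Pc and 16.5 and 27.2 FPKM in Epi, a difference of 6.29 ± 0.37 log2 units (limma, adjusted p = 2.52e-07). Pmel, the protein of the melanosome's fibrils, had 1539 and 1154 FPKM in Mc, against 6.03 and 6.6 FPKM in Pc and 41.4 and 49 FPKM in Epi (6.18 ± 0.36), on a locus that in the file also spans Dgka. Tyrp1, an enzyme that acts after tyrosinase, had 215 and 134 FPKM in Mc, against 0.265 and 0.326 FPKM in Pc and 4.88 and 6.78 FPKM in Epi (5.85 ± 0.28). In each of these 3 genes Epi stood above Pc and far below Mc.

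Of the 16 genes listed for melanosome enzymes, matrix and ion transport, 12 were higher in Mc, 1 was lower and 3 were not called, with a median difference of 5.39. Tyr, tyrosinase, the first enzyme of melanin synthesis, had 259 and 348 FPKM in Mc, against 2.66 and 3.76 FPKM in Pc and 6.95 and 16.2 FPKM in Epi (5.43 ± 0.40, limma, adjusted p = 1.48e-06). Dct, which converts dopachrome, was 6.02 ± 0.45 log2 units higher (limma, adjusted p = 1.49e-06). The transporters and channels Slc45a2 (5.69 ± 0.31), Slc24a5 (5.35 ± 0.33), Mcoln3 (5.48 ± 0.28), Gpr143 (4.37 ± 0.20), a melanosomal receptor, and Oca2 (3.34 ± 0.21) were higher as well. Oca2 was the least abundant of them, with 14.8 and 7.1 FPKM in Mc, 0.0288 and 0 FPKM in Pc and 0.11 and 0.366 FPKM in Epi. Gpnmb, a melanosomal glycoprotein, was 5.75 ± 0.32 higher, and Cd63, a tetraspanin that sorts Pmel, was 2.42 ± 0.14 higher. Cd63 had 891 and 747 FPKM in Mc, against 129.6 and 144 FPKM in Pc and 161 and 179 FPKM in Epi, but Fb held 908 and 1018 FPKM, so that this gene was not low outside Mc. Slc7a11, the cystine transporter needed for red-yellow pigment in mice, went the other way: it had 1.84 and 1.17 FPKM in Mc, against 4.23 and 2.55 FPKM in Pc and 18.1 and 25.5 FPKM in Epi, a difference of -1.99 ± 0.26 (limma, adjusted p = 9.43e-05), with Epi highest. Tpcn2, Atp7a and Mfsd12 were not called.

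Because these genes were high together, their promoters were searched for the M-box core TCATGTG, an E-box variant that Mitf is known to bind, and for TCACGTG, the core of the element bound by the related factor Tfeb. Sequences were taken from RefSeq (GRCm38.p6), from 250 bases before to 50 after the annotated start, both strands were read, and neither motif contains the other. Of 27025 genes with a promoter in that table, 4.31% hold TCATGTG and 4.29% hold TCACGTG. Of the melanosome list, 12 of 16 genes had a promoter there and 5 held TCATGTG, namely Tyr, Tyrp1, Dct, Slc24a5 and Slc7a11. The windows below show the motif in capitals within bases before the start, each read 5′ to 3′ on the gene's strand. In Slc24a5 and Mlph the capitals are the motif of the opposite strand. Dct held a second TCATGTG, on the opposite strand 232 to 226 bases before the start, which is not shown. Mlph is from the list for melanosome biogenesis and transport, where 7 of 21 genes with a promoter held TCACGTG and 1 held TCATGTG.
Tyr, chr7:87493513-87493564, minus strand, motif 22 to 16 bases before the start: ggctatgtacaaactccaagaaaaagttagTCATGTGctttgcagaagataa
Tyrp1, chr4:80834136-80834202, plus strand, motif 47 to 41 bases before: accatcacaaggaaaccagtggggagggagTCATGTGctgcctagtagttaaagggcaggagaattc
Dct, chr14:118052361-118052427, minus strand, motif 151 to 145 bases before: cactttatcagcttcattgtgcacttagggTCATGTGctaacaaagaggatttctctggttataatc
Slc24a5, chr2:125068084-125068126, plus strand, motif 13 to 7 bases before: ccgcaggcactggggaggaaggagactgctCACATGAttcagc
Mlph, chr1:90915022-90915088, plus strand, motif TCACGTG 48 to 42 bases before: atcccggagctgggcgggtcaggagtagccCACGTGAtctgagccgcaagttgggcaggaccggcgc
Over all members above both keratinocyte fractions, 48 of 774 with a promoter held TCATGTG (6.2%) and 52 held TCACGTG (6.72%), and over those below both, 16 of 572 (2.8%) and 33 (5.77%). A match is a description of letters and not of binding. Slc7a11 held the motif and was lower in Mc.

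Mir211 needs a separate reading, since it lies inside Trpm1 and the file gives both genes the same locus. Mir211 was listed at 365 and 336 FPKM in Mc and at 0 in all 4 Pc and Epi libraries and both Fb libraries, so no fold is given. Trpm1, a melanocyte cation channel, had 88.3 and 52.1 FPKM in Mc, against 1.66 and 0.645 FPKM in Pc and 1.93 and 2.69 FPKM in Epi, a difference of 4.71 ± 0.25 (limma, adjusted p = 1.64e-07). Whether the Mir211 value stands for the microRNA or for its host transcript was not tested. Mir664 was listed at 130.2 and 107 FPKM in Mc, and likewise at 0 in Pc, Epi and Fb, on a locus shared with Rab3gap2 and Iars2, neither of which was called. The mature sequence of the better known arm, with the seed (bases 2 to 8) in capitals, is given by RefSeq on GRCm38.p6 as follows.
mmu-miR-211-5p, chr7:64205831-64205852, plus strand: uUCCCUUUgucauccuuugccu

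In the list of 24 tested genes for melanosome biogenesis and transport, 9 were higher, none was lower and 15 were not called, with a median of 0.63. At an unadjusted p under 0.05, limma put 3 of the 24 lower. The genes for the melanosome's link to actin were among the 9. Mlph, melanophilin, had 69.9 and 46.5 FPKM in Mc, against 0.339 and 0.143 FPKM in Pc and 1.74 and 2.32 FPKM in Epi (4.91 ± 0.23). Rab27a, the small GTPase to which it binds, had 43.6 and 50.8 FPKM in Mc, against 5.55 and 6.56 FPKM in Pc and 5.44 and 9.55 FPKM in Epi (2.66 ± 0.24). Myo5a, the myosin motor, had 108 and 107 FPKM in Mc, against 11.9 and 15.2 FPKM in Pc and 10.2 and 13.7 FPKM in Epi (2.99 ± 0.26, limma, adjusted p = 5e-06). Sytl2 (4.09 ± 0.27), Hps3 (2.46 ± 0.29), Lyst (1.92 ± 0.27) and Dtnbp1 (1.41 ± 0.29) were higher too. Rab38, which delivers melanogenic enzymes, was not: it had 46.3 and 34.5 FPKM in Mc, against 51 and 63.1 FPKM in Pc and 74 and 89 FPKM in Epi, a difference of -0.75 ± 0.25, with every library of the 3 fractions above Fb (1.94 and 2.38 FPKM). Rab32, its close relative, had 7.16 and 8.27 FPKM in Mc, against 12.2 and 21.2 FPKM in Pc and 11.3 and 9.81 FPKM in Epi (-0.69 ± 0.29, not called). All 5 listed Bloc1s genes tested had differences between -0.10 and 0.49 and none was called.

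Lysosomal genes were higher in Mc or not called. Of 27 genes for the lysosome and its proton pump, 12 were higher and none was lower, with a median of 0.92. At an unadjusted p under 0.05, limma put 23 of the 27 higher and 0 lower. Atp6v0a1, a membrane subunit of the V-type proton pump, had 73 and 64.7 FPKM in Mc, against 8.91 and 6.39 FPKM in Pc and 12.7 and 12 FPKM in Epi (2.70 ± 0.23, limma, adjusted p = 4.17e-06). Hexa, a lysosomal hexosaminidase subunit, had 52.2 and 58 FPKM in Mc, against 2.49 and 2.43 FPKM in Pc and 3.06 and 3.26 FPKM in Epi (3.89 ± 0.27). Atp6v0c (2.09 ± 0.36), Ctsd (1.78 ± 0.25), Ctsa (1.66 ± 0.25), Npc2 (1.45 ± 0.15), Atp6v1e1 (1.40 ± 0.17) and Lamp1 (1.25 ± 0.14) were also higher. In the promoters of this list, 9 of 19 genes held TCACGTG and 4 of 19 held TCATGTG.

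Among 18 transcription factors of melanocytes and the neural crest, 10 were higher, 3 lower and 5 not called, with a median of 1.60. Mitf had 115 and 167 FPKM in Mc, against 0.825 and 1.42 FPKM in Pc and 2.56 and 6.52 FPKM in Epi (5.40 ± 0.31, limma, adjusted p = 2.4e-07). Sox10, which acts upstream of Mitf, had 131 and 123 FPKM in Mc, against 1.4 and 0.598 FPKM in Pc and 3.12 and 3.16 FPKM in Epi (5.49 ± 0.33). Pax3, which acts with it, had 59.3 and 68.7 FPKM in Mc, against 0.673 and 1.08 FPKM in Pc and 0.658 and 2.2 FPKM in Epi (4.97 ± 0.26). None of these 3 overlapped between the sides. Ets1 (4.93 ± 0.28), Foxd3 (3.66 ± 0.31), Sox11 (3.27 ± 0.35), Sox5 (3.12 ± 0.23), Tbx2 (2.97 ± 0.31) and Irf4 (1.95 ± 0.18) were higher as well. Foxd3, a factor of early crest cells, had 22.1 and 8.66 FPKM in Mc, 0.103 and 0.189 FPKM in Pc and 0.151 and 0.311 FPKM in Epi, and stood at 114 and 78.9 FPKM in the Sch fraction.

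The 3 factors on that list that were lower in Mc are each known in melanoblasts. Snai2, the transcriptional repressor also called Slug, had 9.62 and 13.2 FPKM in Mc, against 46 and 73.1 FPKM in Pc and 32.3 and 43.6 FPKM in Epi (-1.96 ± 0.26, limma, adjusted p = 0.00011), and Fb held 41.6 and 64.8 FPKM. Lef1, a mediator of Wnt signalling, had 15.8 and 17.5 FPKM in Mc, against 89.3 and 84.8 FPKM in Pc and 54.6 and 50.3 FPKM in Epi (-1.96 ± 0.16). Sox9 had 0.972 and 0.948 FPKM in Mc, against 5.43 and 4.79 FPKM in Pc and 3.7 and 4.95 FPKM in Epi (-1.53 ± 0.25). In all 3 genes both Mc libraries were below every Pc and Epi library. Sox6, by contrast, a relative of Sox5, was shared: it had 25.7 and 36.7 FPKM in Mc, against 22.4 and 28.6 FPKM in Pc and 17.6 and 18.5 FPKM in Epi, and 0.363 and 0.381 FPKM in Fb.

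Receptors that guide and keep melanoblasts made up the next group, with 6 of 16 higher, 3 lower and 7 not called and a median of 0.57. Ednrb, the endothelin receptor, had 323 and 343 FPKM in Mc, against 2.35 and 2.45 FPKM in Pc and 7.68 and 13.6 FPKM in Epi (5.75 ± 0.32, limma, adjusted p = 2.14e-07). Kit was 5.70 ± 0.36 higher. Mc1r, the melanocortin receptor, had 58.4 and 54.9 FPKM in Mc, against 0.15 and 0.473 FPKM in Pc and 1.82 and 2.13 FPKM in Epi (4.87 ± 0.23), on a locus overlapped by the coding gene Gm20388. Erbb3 (1.51 ± 0.22), the neuregulin receptor, Met (1.45 ± 0.26), the receptor for Hgf, and Ednra (1.80 ± 0.21) were also higher, but at smaller ratios. Erbb3 was not a melanocyte gene alone, with 37.8 and 39.3 FPKM in Mc, 12.5 and 8.88 FPKM in Pc and 16.4 and 15.1 FPKM in Epi and with every library of Mc, Pc and Epi above Fb (0.521 and 0.755 FPKM). Fgfr2, the receptor that epidermis uses for dermal Fgf ligands, was lower: it had 21.4 and 10.8 FPKM in Mc, against 208 and 256 FPKM in Pc and 158 and 138 FPKM in Epi (-3.52 ± 0.29, limma, adjusted p = 3.3e-06). Without Mc replicate 2 only Fgfr2 remained lower of the 3, since the limma adjusted p became 0.148 for Erbb2 and 0.101 for Notch1. Notch1 also lost its call without Mc replicate 1 (adjusted p 0.164 by limma), Epi replicate 1 (0.0609), Epi replicate 2 (0.0558) or Pc replicate 1 (0.0788).

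Vim, Cdh2 and several mesenchymal transcription factors were higher in Mc, although Mc also held E-cadherin. Vim, the intermediate filament of mesenchymal cells, had 1689 and 1532 FPKM in Mc, against 65.7 and 38.8 FPKM in Pc and 73.8 and 75.2 FPKM in Epi (4.69 ± 0.23, limma, adjusted p = 1.29e-07), and Fb held 1001 and 756 FPKM. Cdh2, N-cadherin, had 18 and 20.2 FPKM in Mc, against 0.38 and 0.322 FPKM in Pc and 0.308 and 0.847 FPKM in Epi (3.79 ± 0.20). Zeb1, a repressor of epithelial genes, had 8.38 and 7.53 FPKM in Mc, against 0.55 and 0.584 FPKM in Pc and 0.413 and 1.15 FPKM in Epi (2.44 ± 0.23). In all 3 genes the Mc libraries exceeded every keratinocyte library, and in Vim and Cdh2 they exceeded both Fb libraries too. Of the 11 tested genes on the mesenchymal list 7 were higher and 1, Snai2, was lower, and the higher count was 4 without Mc replicate 1. Twist1 and Prrx1, which are abundant in Fb, were among the 7: Prrx1 had 6.43 and 7.05 FPKM in Mc, 1.59 and 1.64 FPKM in Pc and 0.84 and 1.91 FPKM in Epi, against 115 and 163 FPKM in Fb. Of the 16 fibroblast markers 10 were higher in Mc and 3 lower. Their summed level was 671 and 438 FPKM in Mc, 559 and 655 FPKM in Pc and 485 and 507 FPKM in Epi. In Fb it was 10937 and 9540 FPKM. The part of fibroblast RNA in the Twist1, Twist2, Prrx1 and Cdh11 values was not tested.

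**Figure D2:**
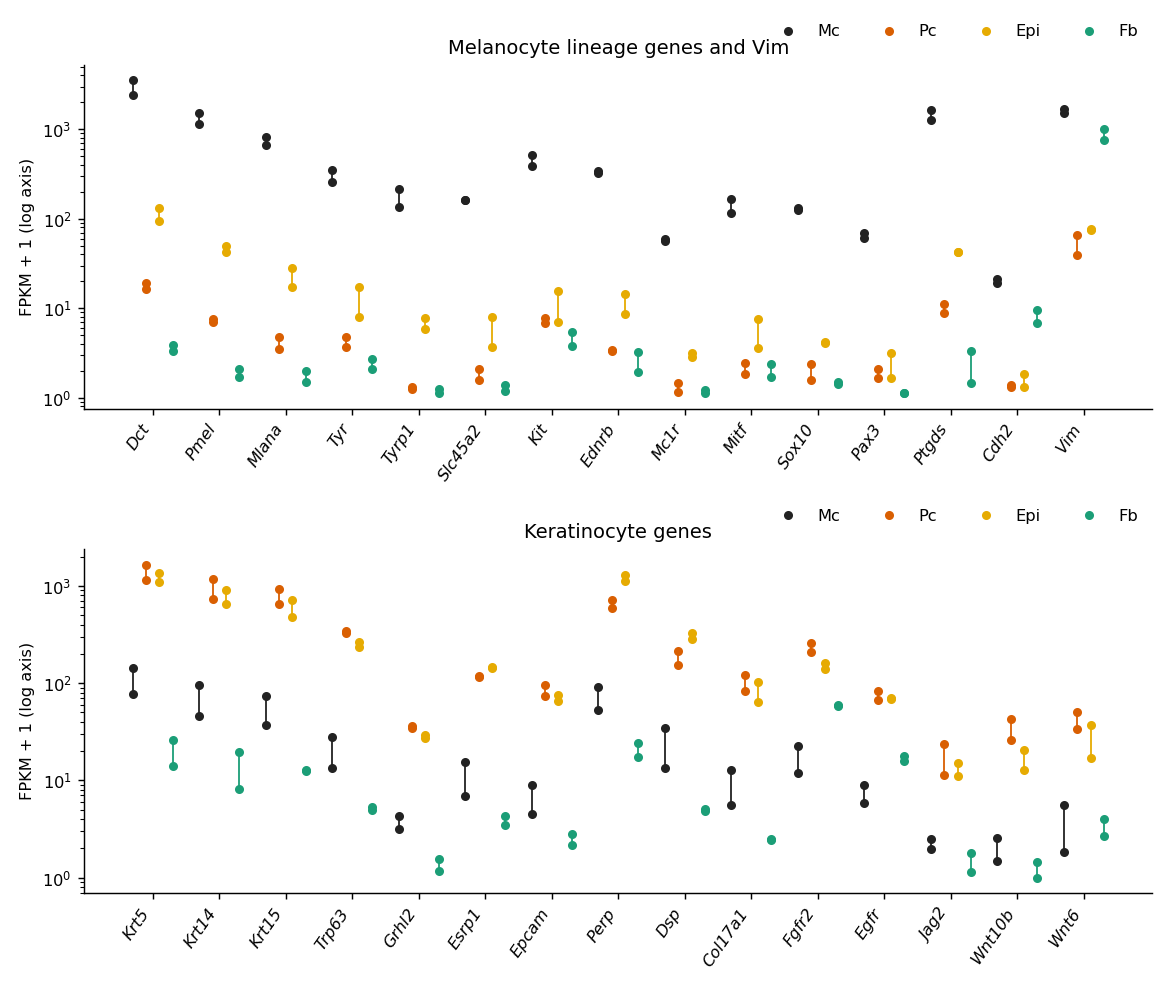
FPKM + 1 on a log axis in each of the 2 libraries of Mc, Pc, Epi and Fb for 15 melanocyte or mesenchymal genes (upper row) and 15 keratinocyte genes (lower row), each dot a library and each line the span of a fraction. Both Mc libraries lie above all Pc and Epi libraries in each gene of the upper row, and under all of them in each gene of the lower row. For the leading genes among them this was a condition of being named.

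The 12 leading genes lower in melanocytes were Trp63, Gjb6, Lypd6b, Krt15, Esrp1, Perp, Krt14, Kremen2, Krt5, Epcam, Anxa8 and Wnt10b. Trp63 had 27 and 12.3 FPKM in Mc, against 330.4 and 339 FPKM in Pc and 265 and 235 FPKM in Epi (-3.91 ± 0.33, limma, adjusted p = 4.22e-06). Perp, a desmosomal membrane protein and Trp63 target, had 91.3 and 51.9 FPKM in Mc, against 590 and 717 FPKM in Pc and 1111 and 1281 FPKM in Epi (-3.66 ± 0.48). Esrp1, the epithelial splicing factor, had 14.5 and 5.93 FPKM in Mc, against 119 and 115 FPKM in Pc and 143 and 147 FPKM in Epi (-3.66 ± 0.40). Trp63, Perp, Krt5, Krt14 and Krt15 are themselves among the 18 basal markers. Mc replicate 1 was the higher of the 2 in Trp63, Krt5, Krt14, Krt15, Esrp1, Perp and Epcam alike. When the median percentage over the basal markers was taken off each Mc library as a share of the keratinocyte profile, an alternative chosen after the data had been seen, the row counts became 1263 higher and 1533 lower and Ctnna1, described further on, was the 1 gene named here that lost its call.

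All 17 tested epithelial transcription and splicing factors were lower in Mc, with a median of -2.82. They included Trp63 (-3.91 ± 0.33), Grhl2 (-3.09 ± 0.24), Tfap2c (-3.17 ± 0.24), Gata3 (-3.10 ± 0.31) and Ovol2 (-2.93 ± 0.19). Grhl2, a factor that maintains epithelial junction genes, had 3.34 and 2.16 FPKM in Mc, against 35 and 33.3 FPKM in Pc and 26.4 and 28.5 FPKM in Epi. Ovol2, which represses mesenchymal genes in epithelia, had 0 and 0.311 FPKM in Mc, against 10.1 and 6.67 FPKM in Pc and 8.43 and 6.23 FPKM in Epi, so that 1 of the 2 Mc libraries is listed at 0. Of 13 tested keratin genes 10 were lower and none was higher by limma, with a median of -2.10 and 1 higher at an unadjusted p under 0.05. Krt14, the partner of Krt5 in basal cells, had 95.5 and 45.4 FPKM in Mc, against 1166 and 735 FPKM in Pc and 897 and 653 FPKM in Epi (-3.65 ± 0.67). The keratins of differentiating cells depended on a library: Krt1 and Krt10 differed by -2.63 ± 0.60 and -2.66 ± 0.70, but without Mc replicate 2 the limma adjusted p was 0.109 and 0.203, and the count of lower keratins was 6. In the list of epidermal differentiation genes 14 of 16 were lower, and 9 without Mc replicate 2.

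Desmosomal genes were low in Mc: 13 of 14 tested were lower and none higher by limma, also at an unadjusted p under 0.05, with a median of -2.76. Dsp, desmoplakin, which ties desmosomes to keratin, had 33.9 and 12.4 FPKM in Mc, against 212 and 151 FPKM in Pc and 324 and 282 FPKM in Epi (-3.43 ± 0.52, limma, adjusted p = 0.000344). Pkp1, a plaque protein, had 14.1 and 6.9 FPKM in Mc, against 90.3 and 70.8 FPKM in Pc and 143 and 140.2 FPKM in Epi (-3.30 ± 0.40). Dsg2, Dsg3 and Dsc3, the adhesive cadherins, differed by -3.25 ± 0.25, -2.75 ± 0.25 and -3.03 ± 0.33. The exception was Pkp4, a plakophilin-related protein also found at adherens junctions, which had 72.3 and 61.8 FPKM in Mc, against 79.7 and 78.2 FPKM in Pc and 56.9 and 54.8 FPKM in Epi (0.01 ± 0.14), and 20.5 and 19.7 FPKM in Fb.

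Tight junction and polarity genes were lower for the most part, with 14 of 20 lower, 1 higher and a median of -1.89. F11r, the junctional adhesion molecule A, had 2.29 and 1.51 FPKM in Mc, against 14.2 and 13.5 FPKM in Pc and 18.4 and 18 FPKM in Epi (-2.55 ± 0.24). Ocln, occludin, had 0.533 and 0.235 FPKM in Mc, against 2.74 and 2.15 FPKM in Pc and 6.98 and 8.94 FPKM in Epi (-2.01 ± 0.18). Cldn6, Cxadr and Cldn1 differed by -2.59 ± 0.22, -3.02 ± 0.28 and -2.15 ± 0.27. Tjp1, a scaffold protein, had 33.3 and 41.7 FPKM in Mc, against 24.5 and 29.1 FPKM in Pc and 27.9 and 34.4 FPKM in Epi (0.36 ± 0.20, not called), and Fb held 28.1 and 39.8 FPKM. Of 12 epithelial membrane proteases, inhibitors and sorting genes all 12 were lower, among them Cdcp1 (-3.20 ± 0.20), Spint1 (-3.14 ± 0.33), Ap1m2 (-3.05 ± 0.29) and St14 (-2.74 ± 0.26).

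Cell-matrix adhesion genes differed in both directions. Of 26 genes for hemidesmosomes, basement membrane and integrins 15 were lower, 4 higher and 7 not called, with a median of -1.23. Itgb4, the integrin chain found in hemidesmosomes, had 3.88 and 2.21 FPKM in Mc, against 49.4 and 30.1 FPKM in Pc and 40.6 and 24.8 FPKM in Epi (-3.19 ± 0.36, limma, adjusted p = 3.36e-05). Col17a1, the hemidesmosomal collagen, had 11.7 and 4.64 FPKM in Mc, against 120.3 and 82.7 FPKM in Pc and 102 and 63.7 FPKM in Epi (-3.42 ± 0.44). Itga3 (-3.04 ± 0.31), the laminin chains Lama3 (-3.20 ± 0.22), Lamb3 (-2.54 ± 0.22) and Lama5 (-2.96 ± 0.38), and Fras1 (-3.46 ± 0.34) and Frem2 (-2.72 ± 0.20), which anchor embryonic epidermis, were lower too. Itga4, a receptor chain for fibronectin and Vcam1, was higher: it had 39.3 and 71.6 FPKM in Mc, against 0.611 and 0.855 FPKM in Pc and 1.22 and 3.3 FPKM in Epi (4.55 ± 0.52, limma, adjusted p = 3.56e-05). Itga9 (3.35 ± 0.19) and Itga5 (1.51 ± 0.30) were higher as well. Dst, which exists as a hemidesmosomal and as other forms, had 69.9 and 65.6 FPKM in Mc, against 58 and 64.2 FPKM in Pc and 46.9 and 47.4 FPKM in Epi (0.33 ± 0.22), and was not called.

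**Figure D3:**
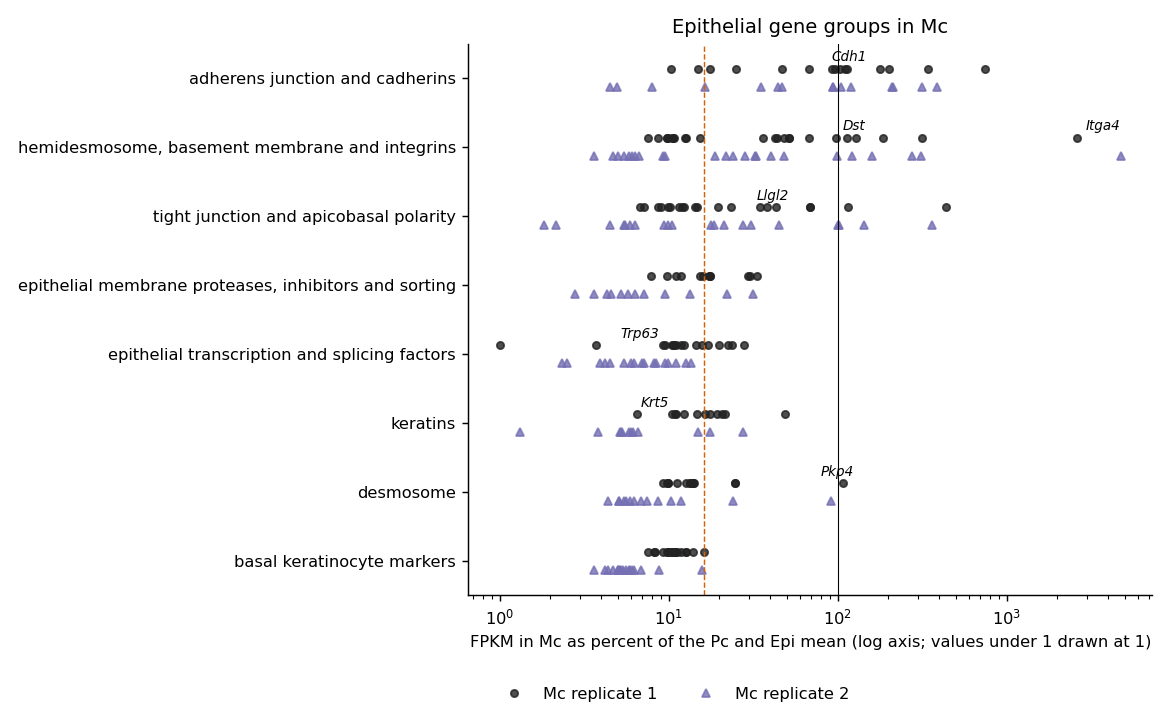
Level of each gene in Mc as a percentage of the mean of Pc and Epi (log axis), for 8 epithelial lists with at least 1 FPKM in the keratinocytes, with circles for Mc replicate 1 and triangles for Mc replicate 2. The dashed line marks 16.2%, the highest value of any basal keratinocyte marker in Mc, and the solid line equal levels; Cdh1 and Pkp4 lie near the solid line, while the basal keratinocyte markers all lie at or left of the dashed one.

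Adherens junction genes and cadherins gave as many higher as lower calls. Of 18 tested genes 5 were higher, 5 lower and 8 not called, and the median was 0.05. Expressed as a percentage of the keratinocyte level, the median over 15 genes was 95.7%, against 9.51% over 14 desmosomal genes, 13.8% over 20 tight junction genes, 32.3% over 24 matrix adhesion genes, 10.9% over 17 epithelial transcription and splicing factors and 8.25% over the basal markers. In 12 of the 15, both Mc libraries stood above the highest basal marker, as they did in 2 of 14 desmosomal, 8 of 20 tight junction and 13 of 24 matrix adhesion genes. The percentages cover members with a mean of at least 1 FPKM in the keratinocytes. Over all rows tested the median difference was -0.01, so a level near that of the keratinocytes is not particular to this list. The share of all members above the highest basal marker was not counted. Not all of the 12 were low in Fb: Cdh11 had a mean of 13.6 FPKM in Mc and 285 FPKM in Fb. Cdh1, E-cadherin, had 224 and 236 FPKM in Mc, against 159 and 137 FPKM in Pc and 252 and 241 FPKM in Epi, with 3.97 and 3.24 FPKM in Fb. The difference between Mc and the keratinocytes was 0.27 ± 0.39 with a 95% interval of -0.58 to 1.12, and Mc lay between Pc and Epi.

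The catenins, which bind the tails of cadherins or link them to actin, were expressed on both sides and also in Fb. Ctnna1, alpha-catenin, had 174 and 182 FPKM in Mc, against 84.7 and 85.5 FPKM in Pc and 90.3 and 82.5 FPKM in Epi (1.05 ± 0.13, limma, adjusted p = 8.53e-05), with 76.2 and 83.4 FPKM in Fb, and its difference was 0.99 and not called after the keratinocyte share had been taken off. It was the 1 catenin of the 3 given here that was higher. Ctnnb1, beta-catenin, had 562 and 548 FPKM in Mc, against 664 and 733 FPKM in Pc and 502 and 423 FPKM in Epi (-0.03 ± 0.17), with 308 and 417 FPKM in Fb. Ctnnd1, p120-catenin, had 131 and 125 FPKM in Mc, against 103 and 111 FPKM in Pc and 134 and 127 FPKM in Epi (0.11 ± 0.14), with 74.8 and 90.2 FPKM in Fb. Mllt4, afadin, had 31.7 and 28.9 FPKM in Mc, against 28.8 and 28.6 FPKM in Pc and 31.1 and 34.5 FPKM in Epi (-0.02 ± 0.21), and Fb held 11.1 and 12.7 FPKM. Cdh3, P-cadherin, had 44.4 and 33.4 FPKM in Mc, against 136 and 106 FPKM in Pc and 80.0 and 58.3 FPKM in Epi (-1.21 ± 0.31, limma, adjusted p = 0.0115), and the call was lost without Mc replicate 2 (limma adjusted p 0.134). Cdh19 (3.27 ± 0.37) and Cdh13 (2.18 ± 0.32) were higher in Mc. Cdh19, a cadherin of the crest's glial branch, had 10.9 and 10.2 FPKM in Mc, 0.0647 and 0.0718 FPKM in Pc and 0.0986 and 0.631 FPKM in Epi. Epcam (-3.61 ± 0.42), Pvrl4 (-2.78 ± 0.42), which encodes nectin-4, and Pvrl1 (-2.07 ± 0.31) were lower, and the count of lower genes was 3 without Mc replicate 2.

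Genes held in common by melanocytes and keratinocytes but low in fibroblasts were sought across the whole table. Each of Mc, Pc and Epi was compared with Fb, the largest of the 3 p-values was kept and adjusted over rows, and each difference had to be at least 1. The 3 comparisons share the Fb libraries. This held for 238 rows, 1.68% of those tested. All were members, which an excess of at least 1 unit over Fb in each fraction already requires. Below Fb in all 3 were 642 members. Over all rows tested, members or not, 1102 were below Fb in all 3, which is 7.78%. Of the 238, Mc was over 1 log2 unit lower than the keratinocytes in 67, among them Krt5, Dsp and Trp63, over 1 unit higher in 26, among them Dct, Pmel and Ptgds, and within 1 unit in 145 (1.02% of rows tested). The limit of 1 unit is a cut without a test, and does not show equal levels: of the 12 leading genes named next, limma gave an adjusted p of 0.0243 for Gpr56 (0.74 ± 0.22), 0.044 for Rab38 (-0.75 ± 0.25) and 0.0218 for Ezr (-0.63 ± 0.18) between Mc and the keratinocytes. After the keratinocyte share had been taken off Mc, 163 rows were above Fb in all 3, and 112 of these were within 1 unit.

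The 12 leading shared genes, by their smallest excess over Fb, were Cdh1, Gpr56, Mt2, Sox6, Anxa1, Emb, Rab38, Ezr, Chchd10, 5730508B09Rik, Acot1 and Sft2d2. Cdh1 led with a smallest difference from Fb of 5.02 (limma, adjusted p = 1.4e-05). Gpr56, an adhesion G protein-coupled receptor now called Adgrg1, had 47.3 and 46.5 FPKM in Mc, against 29.3 and 21.2 FPKM in Pc and 31.8 and 29.6 FPKM in Epi, and 0.384 and 0.262 FPKM in Fb (smallest difference 4.30; limma, adjusted p = 1.35e-06). Ezr, ezrin, which links the membrane to actin, had 34.6 and 33.1 FPKM in Mc, against 47.2 and 38.8 FPKM in Pc and 70.5 and 61.1 FPKM in Epi, and 2.37 and 1.97 FPKM in Fb. Anxa1, annexin A1, had 114 and 158 FPKM in Mc, against 150.3 and 154 FPKM in Pc and 276 and 299 FPKM in Epi, and 7.33 and 11.1 FPKM in Fb. In these genes every library of the 3 fractions lay far above both Fb libraries, which follows largely from the choice by excess over Fb. The order among the 3 fractions differed: Mc was highest in Gpr56, and Epi in Ezr and Anxa1. Emb, embigin, a cell adhesion glycoprotein, had 24.8 and 32.5 FPKM in Mc, against 29.2 and 42 FPKM in Pc and 23.3 and 34.9 FPKM in Epi, and 0.678 and 1.97 FPKM in Fb. Mt2, a metallothionein, had 139.9 and 389 FPKM in Mc, against 312 and 202 FPKM in Pc and 189.6 and 209 FPKM in Epi, so its 2 Mc libraries differed more than Mc and the keratinocytes did.

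Other shared genes came from the adhesion, guidance and prostaglandin lists. They were Mllt4, Pkp4, Llgl2, Dst, Sema4b, Plxna2, Plxnb1 and Hpgds. Llgl2, a polarity gene, had low values, 1.71 and 2 FPKM in Mc, 5 and 1.86 FPKM in Pc and 5.75 and 5.23 FPKM in Epi, so the 1 FPKM added before the logarithm narrows its difference (-0.86 ± 0.26, limma, adjusted p = 0.0295). Plxnb1, a semaphorin receptor, had 13.6 and 10.1 FPKM in Mc, against 19.8 and 13 FPKM in Pc and 13 and 9.61 FPKM in Epi, and 3.12 and 1.73 FPKM in Fb (smallest difference 1.86; limma, adjusted p = 0.00726). Hpgds, a prostaglandin D synthase, had 7.99 and 10.2 FPKM in Mc, against 13.5 and 22.7 FPKM in Pc and 10.4 and 13.1 FPKM in Epi, and 0.139 and 0.283 FPKM in Fb. Tfap2a and Tfap2b, which act in both epidermis and crest, were above Fb in all 3 fractions: Tfap2a had 114 and 177 FPKM in Mc, 60.7 and 63.4 FPKM in Pc and 51.7 and 61.4 FPKM in Epi, against 1.32 and 1.32 FPKM in Fb, and Tfap2b had 40.0 and 54.4 FPKM in Mc, 106 and 141 FPKM in Pc and 75.3 and 84.9 FPKM in Epi, against 1.01 and 2.51 FPKM in Fb.

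**Figure D4:**
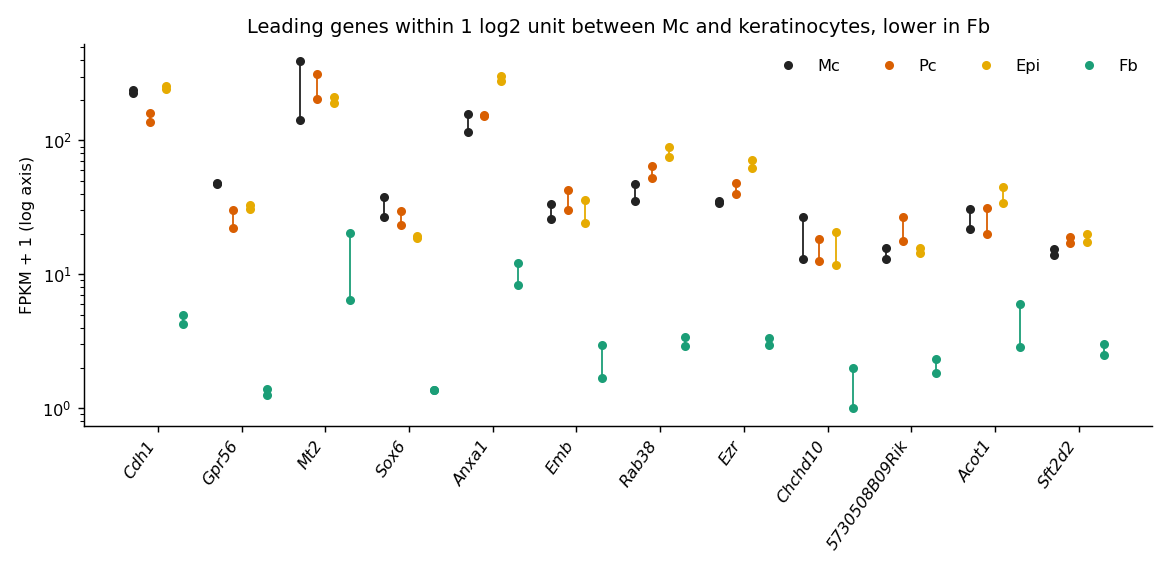
FPKM + 1 on a log axis in the 2 libraries each of Mc, Pc, Epi and Fb for the 12 leading genes that were within 1 log2 unit between Mc and the keratinocytes and lower in Fb, each dot a library. Every Mc, Pc and Epi library lies above both Fb libraries in each of the 12 genes.

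Ligands known to act on melanoblasts, listed together with the enzyme Ece1, were for the most part lower in Mc than in the keratinocytes. Of 20 tested genes 15 were lower in Mc, 1 was higher and 4 were not called, with a median of -2.11. The summed level was 58.3 and 39.2 FPKM in Mc, 359 and 272 FPKM in Pc and 297 and 243 FPKM in Epi. It was not confined to keratinocytes, with 177 and 198 FPKM in Fb and 331 and 330.5 FPKM in the Sch fraction. Wnt10b had 1.53 and 0.482 FPKM in Mc, against 41.8 and 25.1 FPKM in Pc and 19.3 and 11.7 FPKM in Epi (-3.58 ± 0.29, limma, adjusted p = 2.78e-06). Wnt3 (-3.45 ± 0.35), Wnt6 (-3.34 ± 0.50), Wnt7b (-3.02 ± 0.26), Wnt4 (-2.82 ± 0.23), Wnt10a (-2.33 ± 0.35) and Wnt3a (-2.20 ± 0.25) were lower as well, all ligands of Wnt signalling that the epidermis makes. The Notch ligands Jag1 (-2.98 ± 0.21), Jag2 (-2.72 ± 0.50) and Dll1 (-2.42 ± 0.33) showed the same direction. Jag1 had 3.48 and 2.5 FPKM in Mc, against 25.3 and 22 FPKM in Pc and 35.6 and 42.3 FPKM in Epi, with no overlap.

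The ligand of Kit was not confined to keratinocytes. Kitl had 2.39 and 2.79 FPKM in Mc, against 6.28 and 12.6 FPKM in Pc and 4.5 and 6.95 FPKM in Epi, a difference of -1.18 ± 0.36 (limma, adjusted p = 0.0293), while Fb held 19.4 and 37.1 FPKM. The Kitl call was lost with equal totals (limma adjusted p 0.0609) and without Mc replicate 1 (0.167), Mc replicate 2 (0.113), Epi replicate 2 (0.087) or Pc replicate 2 (0.091). Of the endothelins that bind Ednrb, Edn1 (-1.42 ± 0.21) and Edn2 (-2.03 ± 0.25) were lower in Mc, and Edn3 had 1.51 and 1.65 FPKM in Mc, against 1.39 and 0.866 FPKM in Pc and 0.351 and 0.897 FPKM in Epi, with 11.8 and 15.7 FPKM in Fb, and was not called. Ece1, the enzyme that activates endothelins, had 20.7 and 16.5 FPKM in Mc, against 57.3 and 46.1 FPKM in Pc and 66.4 and 59.4 FPKM in Epi (-1.57 ± 0.28). Cxcl12, the chemokine, was the 1 ligand higher in Mc, with 6.53 and 5.03 FPKM in Mc, 1.08 and 1.17 FPKM in Pc and 0.616 and 1.63 FPKM in Epi, and Fb held 60.8 and 79 FPKM.

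Signalling pathway genes divided within each pathway. Of 22 Wnt response genes and inhibitors 5 were higher and 8 lower, with a median of -0.09. The negative feedback genes Nkd2 and Nkd1 were higher (3.55 ± 0.20 and 2.98 ± 0.26), and Nkd2 had 32 and 36 FPKM in Mc, against 1.18 and 1.88 FPKM in Pc and 2.12 and 3.06 FPKM in Epi. Dkk3 (3.67 ± 0.19), a secreted protein of the Dickkopf family, and Tcf7 (1.51 ± 0.20), a transcription factor, were higher too, while Kremen2 (-3.62 ± 0.49), a Dickkopf receptor, Rnf43 (-2.95 ± 0.25) and Lgr6 (-1.99 ± 0.24) were lower. Axin2, a general target of the pathway, had 40.0 and 30.8 FPKM in Mc, against 19.6 and 13.6 FPKM in Pc and 21 and 18.7 FPKM in Epi (0.92 ± 0.31, limma, adjusted p = 0.0461), under the limit of 1 log2 unit, and it passed with equal totals and without Pc replicate 1.

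Of 15 genes for FGF receptors and feedback 6 were higher and 2 lower, with a median of 0.12. Dusp4, a phosphatase that acts on MAP kinases, had 39.8 and 42.3 FPKM in Mc, against 0.685 and 0.154 FPKM in Pc and 1.88 and 1.11 FPKM in Epi (4.50 ± 0.28, limma, adjusted p = 4.29e-07). Etv1 (1.95 ± 0.38), Spry4 (1.65 ± 0.20), Etv5 (1.64 ± 0.17) and Il17rd (1.54 ± 0.16) were higher, whereas the receptors Fgfr2 and Fgfr3 (-1.94 ± 0.22) were lower and Dusp6 was not called (0.12 ± 0.19). In the EGF family, Egfr had 7.88 and 4.81 FPKM in Mc, against 66.8 and 81.7 FPKM in Pc and 69.4 and 67.3 FPKM in Epi (-3.33 ± 0.31, limma, adjusted p = 8.05e-06) and Lrig1 (-2.43 ± 0.30), which restrains it, was lower. Of 11 genes on that list 1 was higher and 4 lower, 2 lower without Mc replicate 2, and 2 higher and 3 lower with a pseudocount of 0.1.

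In the BMP and TGF-beta list of 23 genes 3 were higher and 5 lower, with a median of -0.29. Tgfbr2, the type II receptor, had 36.3 and 25.6 FPKM in Mc, against 4.39 and 6.15 FPKM in Pc and 4.32 and 4.65 FPKM in Epi (2.43 ± 0.19, limma, adjusted p = 1.82e-06), while Bmpr1b (-3.20 ± 0.31), a BMP receptor, and Fst (-3.21 ± 0.27), the activin antagonist, were lower. Of 17 Notch genes 2 were higher and 8 lower, and 4 were lower without Mc replicate 2. The 2 higher ones were the target genes Heyl and Hey1, whereas Hes1 and Nrarp, target genes too, were among the 8 lower. Heyl had 4.04 and 5.52 FPKM in Mc, against 0.497 and 0.205 FPKM in Pc and 0.339 and 0.234 FPKM in Epi (2.13 ± 0.26). Hey1 had 5.23 and 4.78 FPKM in Mc, against 0.57 and 0.615 FPKM in Pc and 0.448 and 0.535 FPKM in Epi (1.96 ± 0.25). The other lower genes were the ligands Jag1, Jag2 and Dll1, the receptors Notch1 and Notch3, and Lfng (-1.88 ± 0.34), a Notch glycosyltransferase.

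Of 24 mitosis genes limma called 0 in either direction and 0 at an unadjusted p under 0.05, with a median of 0.09 and differences from -0.44 to 0.34. Mki67 had 167 and 191 FPKM in Mc, against 198 and 246 FPKM in Pc and 117 and 141 FPKM in Epi (0.08 ± 0.28, 95% interval -0.52 to 0.69). Of 23 DNA replication genes limma called 0, with 1 higher and 1 lower at an unadjusted p under 0.05 and a median of 0.23. The summed mitosis level was 1496 and 1964 FPKM in Mc, 2005 and 2321 FPKM in Pc and 1043 and 1259 FPKM in Epi, so Mc lay between the keratinocyte fractions. Of 9 genes for CDK inhibitors and D cyclins 3 were higher, none was lower by limma, and 3 were lower at an unadjusted p under 0.05; 1 was lower with a pseudocount of 0.1. Ccnd1, cyclin D1, had 62.7 and 112 FPKM in Mc, against 17.6 and 18.4 FPKM in Pc and 17.3 and 21 FPKM in Epi (2.12 ± 0.22, limma, adjusted p = 1.83e-05). Cdkn2c had 13.7 and 16.3 FPKM in Mc, against 5.85 and 4.34 FPKM in Pc and 2.78 and 3.2 FPKM in Epi (1.70 ± 0.21). Ccnd2, cyclin D2, had 63.3 and 67.1 FPKM in Mc, against 117 and 161 FPKM in Pc and 93.6 and 102 FPKM in Epi (-0.82 ± 0.16, under the limit of 1).

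**Figure D5:**
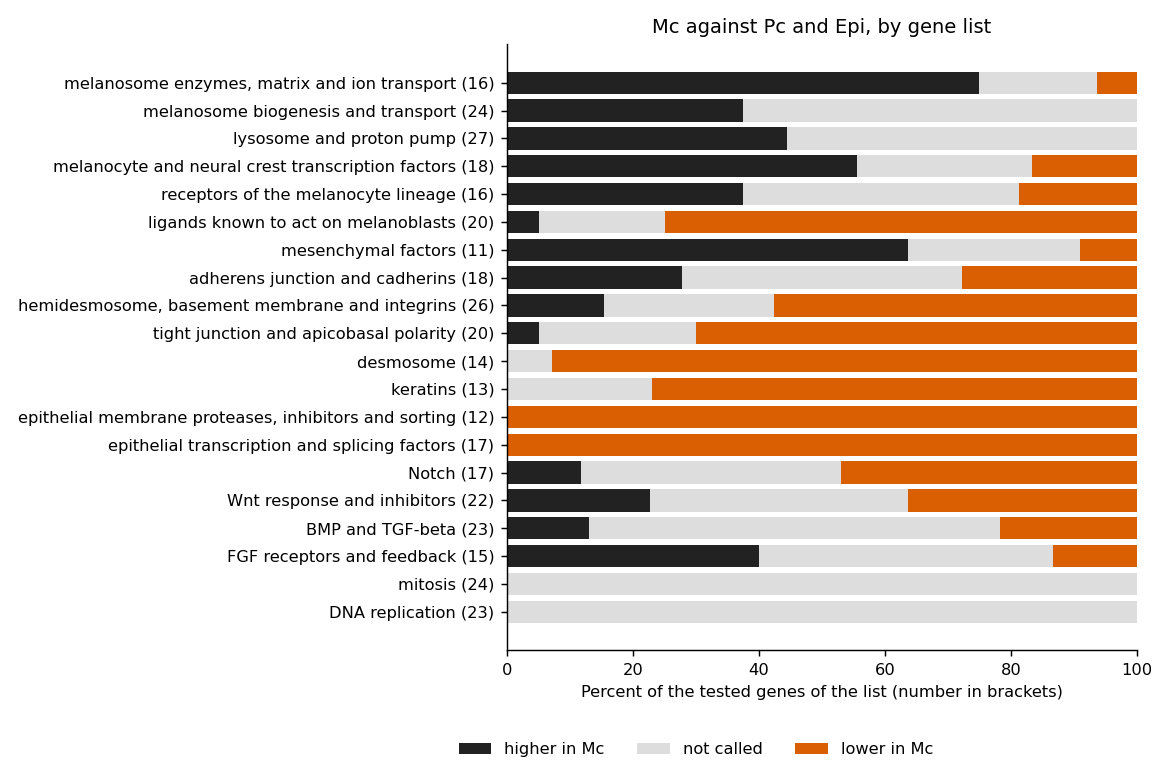
Percentage of the tested genes of each of 20 lists (number tested in brackets) that were higher in Mc, not called or lower in Mc against Pc and Epi. The melanosome list has 12 of 16 higher, the epithelial transcription and splicing factors 17 of 17 lower, the adherens junction list 5 of 18 in each direction, and the mitosis and DNA replication lists none called; over all rows tested 9.3% were higher and 8.55% lower.

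Markers of other cell types that the gate could hold were measured in the same way. The endothelial markers summed to 19.2 and 22.2 FPKM in Mc, 17 and 11.7 FPKM in Pc and 23.1 and 18.7 FPKM in Epi, and of 13 tested limma called 0, with 0 at an unadjusted p under 0.05. Macrophage and leukocyte markers summed to 19.1 and 25.8 FPKM in Mc, 8.29 and 6.35 FPKM in Pc and 13.7 and 24.7 FPKM in Epi; 1 of 10, Laptm5, was higher, 0 without Mc replicate 2 and 2 without Epi replicate 2. Mast cells, which also carry Kit, gave 5.55 and 3.21 FPKM in sum in Mc, 2.26 and 1.68 FPKM in Pc and 3.96 and 5.0 FPKM in Epi, and 1 of 6 markers, Tpsb2, was higher, 0 without Mc replicate 1 and 0 without Pc replicate 2. Erythroid markers gave 0 calls of 8 and skeletal muscle markers 0 of 10 by limma, with 0 and 1 at an unadjusted p under 0.05; 1 muscle marker was called without Epi replicate 2, and 1 with a pseudocount of 0.1. Of the Schwann cell markers 7 of 16 were higher and 2 lower. Sox10, Foxd3, Cdh19 and Erbb3, given above, were among the higher.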

How the data were processed

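RNA was amplified from sorted cells and sequenced in barcoded libraries, per the labels' protocols. The authors deposited 1 table of FPKM values per gene and library, of which all 16 library columns were mapped to samples by title. The submitters' processing notes name TopHat2 2.0.3, Bowtie2, Cufflinks 2.1.1 and the build mm10, with no role. Annotation, strand, read depth and any scaling between libraries are not stated there, so overlapping genes cannot be separated and no counting interval is given. An FPKM value of 0 can be a failed estimate.

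FPKM values were tested as log2(FPKM + 1) with limma 3.58.1 in R 4.3.3 (group means over all 16 libraries, trended and robust variance, Benjamini-Hochberg over the 14171 rows with at least 1 FPKM in at least 2 libraries), and the procedure was tested on simulated data. The simulated noise was independent between libraries, so the simulation did not cover the correlated deviations described below. Fold changes on this scale understate changes of low genes. For comparisons with both Pc and Epi, or of 3 fractions with Fb, the largest p was used. Tables were made in Python 3.11.15 with pandas 2.3.3. Promoter and microRNA sequences came from RefSeq tables. Some genes counted in the lists are not reported here by name.

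The genes, the 38 lists and the tests were chosen with earlier results of these data known. Named genes were up to 12 per direction by difference among members called against both fractions, without overlap of libraries and with a mean of at least 10 FPKM on the higher side; up to 12 shared genes by their smallest difference from Fb; up to 4 called genes per list and direction; 24 fixed genes, of which 1 was not found; and further list members whose values are given. Across the 28 pairs of groups, deviations from the group means correlated between libraries of the same number (r from 0.148 to 0.656). The main tests did not pair the samples, and pairing by number entered only in the replicate block. That pairing comes from the data, since the labels give only the numbers. Alternatives were a pseudocount of 0.1, no filter, a filter on the 6 libraries, equal totals, quantile normalization, only the compared groups, a replicate block, no trend, and leaving out each library of Mc, Pc, Epi or Fb. Removal of a keratinocyte share from Mc was chosen after seeing the data.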

Additional observations from a re-analysis of the deposited data

How the results depend on the processing

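No result reversed. With the filter on the 6 libraries, which left 12383 rows to test, 623 rows lay below Fb in Mc, Pc and Epi, against 1102. Leaving out 1 library gave 1144 to 1293 higher and 971 to 1203 lower rows, 881 to 952 above both keratinocyte fractions, 578 to 798 below both, 160 to 226 above Fb in all 3 fractions, 111 to 154 of these within 1 log2 unit, and 953 to 1022 below Fb. With the replicate block the counts were 1387 higher, 1262 lower, 1180 above both, 919 below both, 342 above Fb, 193 within 1 unit and 1239 below Fb. Of 181 named gene results 179 were called, and 157 of them kept the call in every alternative run; 17 lost it without Mc replicate 2, 8 without Mc replicate 1, and none with the replicate block. Those 181 results cover the genes named by rank and the fixed genes. Further list members whose values are given, such as Ctnna1, are not among them. In the list counts, 2 prostaglandin genes were higher with the block, only the compared groups or a pseudocount of 0.1, against 1. With the block or that pseudocount, 2 macrophage markers were higher, against 1. The pseudocount of 0.1 also gave 4 higher ephrins and Eph receptors, 1 higher placode gene and 1 higher muscle marker, against 0 each, 2 higher EGF family genes, against 1, and 1 lower gene among CDK inhibitors and D cyclins, against 0. Equal totals gave 2 higher ephrins and Eph receptors and 1 higher placode gene, against 0 each. Removal of the keratinocyte share gave 7 lower immediate early genes, against 4, and 2 lower genes among CDK inhibitors and D cyclins, against 0. The causes were not tested. With 2 libraries per fraction, and unknown depth, low FPKM values limit what could be called.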

Other observations

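Guidance and adhesion receptors formed a further difference. Of 29 tested semaphorins, plexins and neuropilins 7 were higher in Mc and 7 lower, with a median of 0.08, and 6 higher and 4 lower without Mc replicate 2. Plxnc1, a receptor for Sema7a known from melanocytes, had 79.5 and 75.3 FPKM in Mc, against 3.58 and 3.34 FPKM in Pc and 3.96 and 5.55 FPKM in Epi (3.96 ± 0.23, limma, adjusted p = 2.47e-07). Plxna4, a receptor for class 3 semaphorins, had 16.7 and 17.4 FPKM in Mc, against 0.647 and 0.374 FPKM in Pc and 0.801 and 0.96 FPKM in Epi (3.42 ± 0.19). Sema3b (3.13 ± 0.28) and Sema6a (1.95 ± 0.17) were higher, whereas Sema4a (-2.91 ± 0.30), Sema4d (-1.90 ± 0.22) and Plxna3 (-1.69 ± 0.24) were lower. Of 18 ephrins and Eph receptors 7 were lower and 0 higher by limma, with 3 higher at an unadjusted p under 0.05; 4 were higher with a pseudocount of 0.1, 2 with equal totals, 1 without Epi replicate 2 and 1 without Pc replicate 2. Epha1 (-3.26 ± 0.32) and Efnb2 (-2.07 ± 0.14) were among the lower.

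Immunoglobulin adhesion molecules gave 7 higher and 3 lower of 18, with a median of 0.78. Nrcam, a neuronal adhesion molecule, had 18.7 and 15.8 FPKM in Mc, against 0.293 and 0.323 FPKM in Pc and 0.613 and 0.933 FPKM in Epi (3.59 ± 0.22, limma, adjusted p = 3.34e-07). Mcam, first known from melanoma, had 56.6 and 51.7 FPKM in Mc, against 15.6 and 17 FPKM in Pc and 11.9 and 9.86 FPKM in Epi (1.94 ± 0.15). Bcam, a laminin receptor, and Icam1 were lower (-3.37 ± 0.64 and -3.10 ± 0.36). Of 6 tested neuron markers 2 were higher in Mc, Tubb3 and Elavl4: Tubb3, a beta-tubulin, had 37.5 and 52.4 FPKM in Mc, 0.227 and 0.0901 FPKM in Pc and 0.678 and 1.41 FPKM in Epi (4.89 ± 0.26), and 20.3 and 17.4 FPKM in the Sch fraction. The Tubb3 locus is overlapped by Gm20388, a coding gene on the same strand that also overlaps Mc1r. The part of Gm20388 RNA in the Tubb3 value was not tested. Ptgds, a prostaglandin D synthase that ranked among the 12 leading genes, had 1660.2 and 1271 FPKM in Mc, against 10.2 and 7.94 FPKM in Pc and 41.2 and 42 FPKM in Epi (6.14 ± 0.47, limma, adjusted p = 1.93e-06), while Ptges (-2.44 ± 0.25), a prostaglandin E synthase, was lower. Of 21 immediate early and stress genes 2 were higher and 4 lower, with 1 higher without Mc replicate 1, and 1 higher and 3 lower without Mc replicate 2. In 16 placode genes 13 were lower and 0 higher by limma, with 1 higher at an unadjusted p under 0.05, and 1 higher with equal totals or with a pseudocount of 0.1. Dkk4, a Wnt inhibitor of the placode, had 0.288 and 0.0706 FPKM in Mc, 20.1 and 18.1 FPKM in Pc and 4.54 and 3.77 FPKM in Epi, and so differed between the keratinocyte fractions as well.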
